A study of Homo sapiens with 54 samples.

Results

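This is the comparison of chronic with acute dopamine at 1 µM, 24 h after the last dose, in H9 hMSN-like cells. These are striatal-type neuron cultures, heterogeneous by the paper's account, differentiated from the H9 (WA09) human embryonic stem cell line. The members are the 3 Chronic 24 h and the 3 Acute 24 h libraries of the 1 µM experiment, chosen by their titles, so 6 of the 54 RNA-seq samples of the series. Acute 24 h cells were given 1 µM dopamine once, and Chronic 24 h cells were given it on each of 5 days. The methods describe incubations of 1 h and do not say whether dopamine was removed from the acute cultures kept to 24 h. Both were harvested 24 h after the last dose, and no engineered allele is named for either. The dopamine of both groups was dissolved with ascorbic acid. The 3 PBS libraries of the same experiment are the control background, and the 1 h libraries of 1 µM and the 24 h libraries of 1 mM, again 3 for each regimen, are used for comparison. All libraries used here come from 1 stem cell line, and the labels do not say whether replicates came from separate differentiations, so p-values measure only the spread between these libraries.

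The chronic cultures were also older, by the days of dosing, at harvest. The methods describe a partial change of medium for the acute dose and a full change to maturation medium before each repeated dose. Number of doses, day in vitro and change of medium differ between the groups together and cannot be told apart. The age of the PBS cultures and the sequencing provider of each library are not given in the sources used here.

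Dopamine acts on G protein-coupled receptors of the D1-like and D2-like families, which raise or lower cAMP in medium spiny neurons and within an hour induce immediate early genes, transcription factors such as FOS and EGR1. Such transcripts are short-lived, and slower programmes of metabolism, lipid synthesis and matrix can follow. Glycolysis turns glucose into pyruvate, and several of its genes are targets of hypoxia-inducible factor (HIF), whose alpha subunit is destroyed when oxygen-, iron- and ascorbate-dependent prolyl hydroxylases modify it.

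The sequences just upstream of some of these genes are shown because HIF binds the short word ACGTG or GCGTG in DNA, and glycolysis and HIF target genes lead what follows. The 250 bases before the annotated start come from RefSeq on GRCh38.p14 and are written 5′ to 3′ on the gene's own strand, with ACGTG and GCGTG, and their reverse complements CACGT and CACGC, in capitals. CACGTG holds both ACGTG and CACGT. PGK1 lies at chrX:78103998-78104247 on the plus strand, ALDOC at chr17:28576896-28577145 on the minus strand, BNIP3 at chr10:131981924-131982173 on the minus strand, LDHA at chr11:18394313-18394562 on the plus strand and SLC16A3, whose window holds 0 of these words, at chr17:82228185-82228434 on the plus strand.
PGK1: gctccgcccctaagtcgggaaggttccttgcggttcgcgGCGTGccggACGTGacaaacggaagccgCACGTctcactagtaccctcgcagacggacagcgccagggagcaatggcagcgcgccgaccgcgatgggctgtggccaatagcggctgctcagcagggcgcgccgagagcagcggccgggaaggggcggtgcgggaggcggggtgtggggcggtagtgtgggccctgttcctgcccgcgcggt
ALDOC: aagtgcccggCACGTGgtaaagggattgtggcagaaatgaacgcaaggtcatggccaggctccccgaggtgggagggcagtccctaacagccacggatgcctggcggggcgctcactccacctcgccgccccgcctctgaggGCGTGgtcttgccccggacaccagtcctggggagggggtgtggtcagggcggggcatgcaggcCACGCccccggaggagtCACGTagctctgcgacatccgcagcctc
BNIP3: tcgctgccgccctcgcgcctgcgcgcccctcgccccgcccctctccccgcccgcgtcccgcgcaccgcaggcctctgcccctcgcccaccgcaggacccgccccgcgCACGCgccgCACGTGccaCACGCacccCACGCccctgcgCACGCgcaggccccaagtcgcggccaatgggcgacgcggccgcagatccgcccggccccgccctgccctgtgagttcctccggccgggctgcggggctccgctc
LDHA: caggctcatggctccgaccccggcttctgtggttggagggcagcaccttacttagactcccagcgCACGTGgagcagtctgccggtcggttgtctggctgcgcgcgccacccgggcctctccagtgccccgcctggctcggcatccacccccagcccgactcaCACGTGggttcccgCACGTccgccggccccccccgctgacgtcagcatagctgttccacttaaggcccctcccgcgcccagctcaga
SLC16A3: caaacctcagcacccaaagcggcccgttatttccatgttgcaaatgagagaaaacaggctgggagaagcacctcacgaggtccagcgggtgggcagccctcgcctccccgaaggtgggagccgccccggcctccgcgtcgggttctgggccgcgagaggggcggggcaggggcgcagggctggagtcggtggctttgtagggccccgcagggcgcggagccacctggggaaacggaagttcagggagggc
Of the 26 glycolysis and HIF target genes that passed the test below, 23 had an entry, and VEGFA, NDRG1 and SLC2A3 had none. Either word, on either strand, stood in 16 of these 23 windows (69.6%), against 6665 of 11832 windows of tested genes (56.3%) and 15172 of all 35116 windows (43.2%). ACGTG stood in 13 of the 23 (56.5%), against 2677 (22.6%) and 6501 (18.5%). A match is a word in the window and not a bound site. The 23 genes come from lists of glycolysis genes and known HIF targets, so a share above the background could be expected whatever these data showed. Members of the lists that did not pass were not compared.

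Chronic 24 h and Acute 24 h cells differed across metabolism, lipid synthesis, RNA processing and DNA replication genes. The genes of glycolysis, HIF targets, cholesterol synthesis and ribosomal proteins that passed the test were higher in Chronic 24 h, and those of DNA replication and aminoacyl-tRNA synthesis were lower, as were all but 1 of those of splicing. The lists of ribosomal proteins, DNA replication and aminoacyl-tRNA synthetases were made after the values were seen. Reads on exons were tested for 16541 genes. DEGs had to pass an adjusted p-value of 0.05, a log2(fold change) of 1 in either direction and, in the group with more, a mean of 1 TPM (transcripts scaled for gene length and library size). Of the tested genes, 240 were DEGs (1.45%), 145 higher in Chronic 24 h (0.877%) and 95 lower (0.574%). Without the fold threshold, 741 genes passed the adjusted p-value (4.48%), with 392 higher (2.37%) and 349 lower (2.11%). No DEG had overlapping TPM between the groups, and neither did 5444 of all tested genes (32.9%). Of the DEGs, 137 of the 145 and 75 of the 95 were protein-coding. The count fell to between 111 and 153 when any 1 of the 6 libraries was left out. It was 598 without the 3 libraries outside these groups that have the highest mitochondrial share, an alternative chosen after the values were seen.

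**Figure D1:**
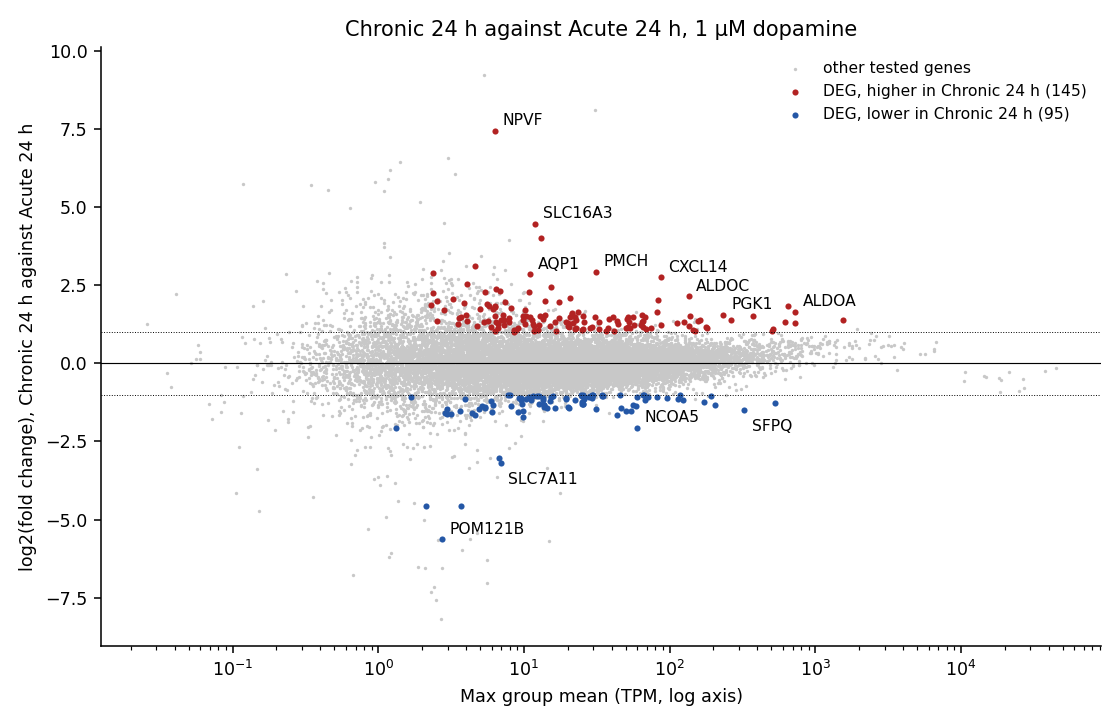
Log2(fold change) of Chronic 24 h against Acute 24 h at 1 µM (y axis) against the higher of the group mean TPM values (x axis, log scale), with a point for each tested gene. DEGs are coloured red for the 145 that were higher and blue for the 95 that were lower, dotted lines mark an absolute log2(fold change) of 1, and points such as NPVF with 0 reads in a group are drawn at their fitted value, which is no bound.

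Depth and composition were checked for the 6 libraries. Reads on exons numbered 7409691 to 11921298 in Acute 24 h and 8792569 to 27702963 in Chronic 24 h. Mitochondrial genes took 5.56% to 10.3% of them in Acute 24 h and 4.61% to 7.18% in Chronic 24 h, with overlap, and their 13 tested genes had a median log2(fold change) of -0.46 with 0 passing by edgeR or DESeq2 and 0 at an unadjusted p under 0.05. That median was -0.018 without replicate 1 of Acute 24 h, the library with 10.3%, and ranged from -0.31 to -0.79 with any of the other 5 left out. The summed TPM of these 13 genes was 232000 to 380000 in Acute 24 h, 181000 to 276000 in Chronic 24 h and 175000 to 427000 in PBS. TPM has a fixed total in each library, so the TPM of other genes is scaled down where this sum is higher. The fold changes and p-values come from exon counts and not from TPM. The part of mitochondrial genes in the results below was not tested.

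The glycolysis genes that passed were higher in Chronic 24 h. Of 24 tested genes of this list, 14 passed in that direction and 0 in the other, with a median log2(fold change) of 0.83 against -0.0022 for all tested genes. PGK1 (ENSG00000102144, chromosome X of GRCh38, 77910739 to 78129295) encodes phosphoglycerate kinase. Its TPM was 71.2, 82.3 and 89.5 in Acute 24 h and 234, 245 and 222 in Chronic 24 h, which made the log2(fold change) 1.54 (SE 0.13, adjusted p = 4.03e-05). All 3 chronic libraries were above all 3 acute ones, and the PBS libraries lay at 233, 142 and 250.

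ALDOA, an aldolase, was at a TPM of 178, 278 and 253 after the acute regimen and 775, 785 and 623 after the chronic one (log2(fold change) 1.64, SE 0.25, adjusted p = 0.00216). ALDOC, the brain aldolase, went from 24.9, 31.5 and 36.9 to 131, 148 and 127 (2.14, SE 0.22, adjusted p = 0.000122). SLC16A3 (ENSG00000141526, chromosome 17, 82228397 to 82261129), the lactate exporter MCT4, was at a TPM of 0.149, 0.877 and 0.562 against 12.6, 12.8 and 10.5. Its 28 exon reads in Acute 24 h and 939 in Chronic 24 h gave a ratio of 21.1 per total reads (95% interval 14.5 to 31.9, counting error only).

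ENO1, PFKP and LDHA also passed, with log2(fold change) values of 1.33, 1.22 and 1.09. So did TPI1 at 1.28, HK2, the inducible hexokinase, at 1.39, and PKM at 0.77. GAPDH did not pass (adjusted p = 0.16), with a TPM of 2151, 2901 and 2854 against 4287, 4462 and 3524, so its groups did not overlap either. With any 1 of the 6 libraries left out, 12 of the 24 passed. LDHA and GAPDH have near-identical pseudogenes, and a gene of this kind is uncertain as reads may be split.

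Of 25 tested HIF targets outside glycolysis, 12 passed higher and 0 lower, with a median log2(fold change) of 1.03. BNIP3, a mitophagy receptor (ENSG00000176171, chromosome 10, 131966455 to 131982013), had a TPM of 24.2, 25.9 and 30.7 in Acute 24 h and 77.6, 78.8 and 91.0 in Chronic 24 h (log2(fold change) 1.63, SE 0.16, adjusted p = 0.000101). VEGFA, the angiogenic growth factor, was at 18.8, 23.1 and 25.8 against 62.6, 61.0 and 70.4 (1.54, SE 0.15, adjusted p = 0.000101). For each of these genes the chronic values lay within or near the range of PBS, which was 80.1, 82.7 and 105 for BNIP3 and 66.7, 52.9 and 78.8 for VEGFA.

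NDRG1, a stress-response gene, passed at 1.48. With any 1 of the 6 libraries left out, 9 or 10 of the 25 passed. Collagen-modifying enzymes include hydroxylases that need oxygen, iron and ascorbate. They form a list made after their values were seen, and 7 of its 20 tested genes passed higher, 0 lower, with a median of 0.52. P4HA1, P4HA2 and LOX are on both lists. P4HA1, a collagen prolyl 4-hydroxylase subunit, had a TPM of 46.6, 49.2 and 51.0 against 124, 144 and 147 (log2(fold change) 1.51, SE 0.17, adjusted p = 0.000278). Its relative P4HA2 passed at 1.79, and P3H2, a prolyl 3-hydroxylase, at 1.70. LOX, which cross-links collagen, was at 3.97, 5.63 and 5.14 against 17.2, 18.9 and 25.7 (2.08, SE 0.30, adjusted p = 0.00156), and PLOD1, a lysyl hydroxylase, passed at 1.31.

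**Figure D2:**
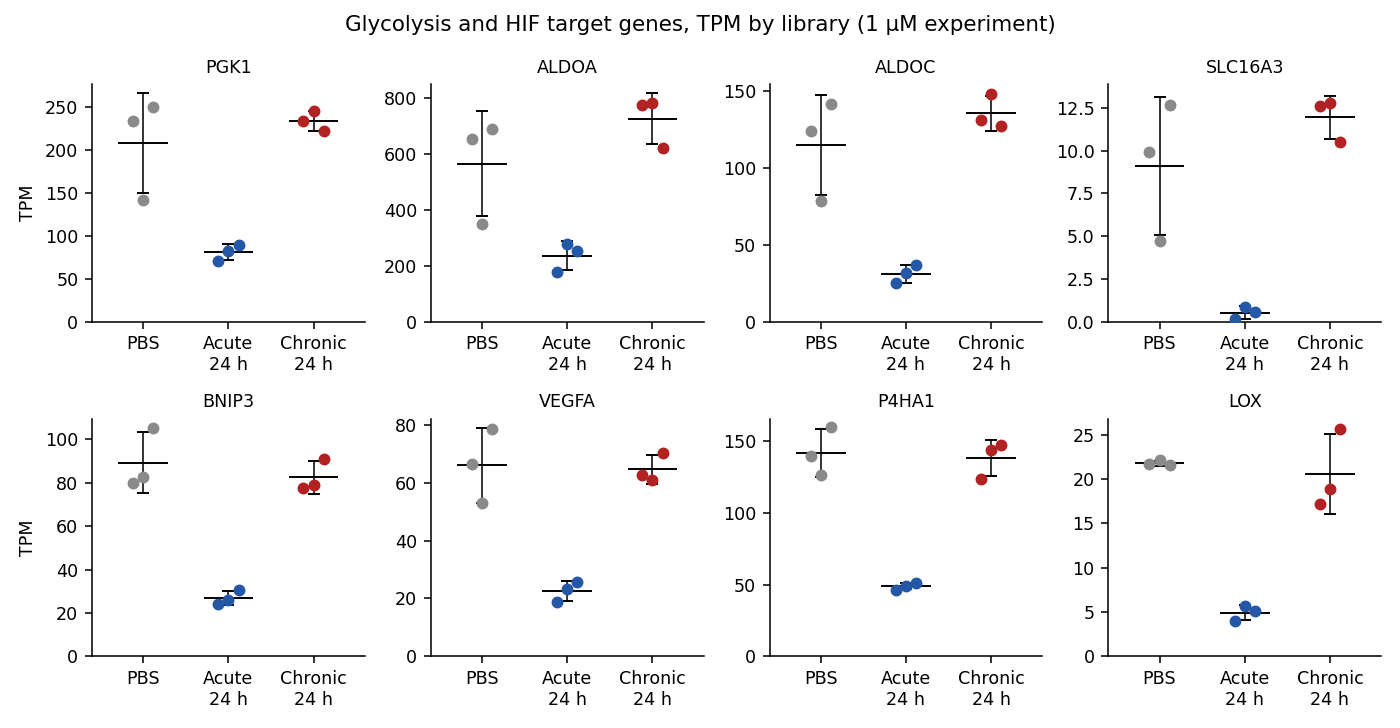
TPM (y axis) of PGK1, ALDOA, ALDOC, SLC16A3, BNIP3, VEGFA, P4HA1 and LOX in each library of PBS, Acute 24 h and Chronic 24 h at 1 µM (x axis), with a line at the mean and bars of 1 SD (n = 3). In all 8 genes the 3 chronic points lie above the 3 acute points, and for PGK1 the acute points at 71.2 to 89.5 also lie below the PBS points at 142 to 250.

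Lipid synthesis genes that passed were higher as well. Of 34 tested cholesterol and fatty acid synthesis genes, 11 passed higher and 0 lower, with a median log2(fold change) of 0.48, and 6 or 7 passed with any 1 of the 6 libraries left out. INSIG1, which retains the sterol sensor in the endoplasmic reticulum and is itself a sterol-regulated gene, had a TPM of 77.9, 113 and 114 in Acute 24 h and 270, 278 and 241 in Chronic 24 h (1.39, SE 0.14, adjusted p = 0.000101). MSMO1, a sterol demethylase, was at 206, 251 and 279 against 497, 537 and 509 (1.09, SE 0.12, adjusted p = 0.000288). FDFT1, squalene synthase, passed at 1.04, and SCD, a fatty acid desaturase, at 0.67. None of these 4 genes had overlapping groups.

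The immediate early genes that passed at 24 h were all higher in Chronic 24 h. Of 34 tested members, 8 passed higher and 0 lower, with a median of 0.58. The count was 5 without replicate 1 of Acute 24 h or replicate 2 of Chronic 24 h, and 6 or 7 without any other. FOS (ENSG00000170345, chromosome 14, 75278826 to 75282230), an AP-1 subunit, was at a TPM of 3.45, 3.60 and 3.27 in Acute 24 h and 9.24, 8.29 and 12.1 in Chronic 24 h (1.52, SE 0.25, adjusted p = 0.00421). PBS lay between, at 7.36, 7.73 and 6.20. At 1 h after the last dose the order was the opposite, with FOS at 54.9 to 104 in the acute libraries and 22.8 to 38.2 in the chronic ones, a log2(fold change) of -1.40 (adjusted p = 0.00799).

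Other members that passed at 24 h were JUN, an AP-1 subunit, at 0.81, IER3 at 1.12, KLF6, a zinc finger factor, at 0.75 and CCN1, a matrix-associated signalling protein, at 1.47. EGR1 was not among them, with 4.24, 9.24 and 7.25 against 7.76, 8.73 and 9.59, overlapping groups. NRN1 (ENSG00000124785, chromosome 6, 5997999 to 6007605), a neurite growth factor regulated by activity, stood at 58.8, 56.7 and 72.5 against 168, 156 and 149 (1.34, SE 0.11, adjusted p = 4.03e-05). RGS2, which dampens Gq signalling, was the other of 16 activity-regulated genes to pass, at 0.81.

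Splicing and RNA-binding factors were among the genes that were lower in Chronic 24 h. Of 15 tested CLK and SR genes, 8 passed lower and 1 higher, with a median of -0.54, and 2 or 3 passed lower with any 1 of the 6 libraries left out. SRSF3, an SR splicing factor, had a TPM of 96.8, 115 and 132 in Acute 24 h and 55.5, 55.8 and 43.6 in Chronic 24 h (-1.13, SE 0.17, adjusted p = 0.00198). SRSF6 passed at -0.72. CLK1, the kinase of SR proteins, was the member higher in Chronic 24 h, at 0.81 (adjusted p = 0.0404), with 66.4, 72.5 and 81.9 against 121, 130 and 131. It lost the call with any 1 of the 6 libraries left out (adjusted p up to 0.128).

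Other RNA-binding proteins, most of them hnRNPs, were listed after their values were seen, and 5 of 26 passed lower, with a median of -0.16 and 0 higher. With 1 library left out, 3 passed without replicate 1 of Chronic 24 h and 4 without any of the other 5, and the median was -0.047 without replicate 1 of Acute 24 h. SFPQ, a paraspeckle protein, was at 307, 331 and 342 against 111, 113 and 123 (log2(fold change) -1.49, SE 0.18, adjusted p = 0.000387), and HNRNPM at 191, 212 and 216 against 86.1, 78.9 and 78.9 (-1.33, SE 0.14, adjusted p = 0.00013). PBS was at 136, 134 and 141 for SFPQ and at 91.5, 59.3 and 82.9 for HNRNPM, below every acute library of the same gene.

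NCOA5 (ENSG00000124160, chromosome 20, 46060991 to 46089962), a nuclear receptor coregulator, was at 58.3, 57.1 and 64.0 in Acute 24 h and 14.3, 14.5 and 13.6 in Chronic 24 h (-2.07, SE 0.18, adjusted p = 4.03e-05). PBS was at 14.3, 15.8 and 17.4. At 1 h the regimens overlapped, at 58.4 to 95.5 after acute and 71.0 to 117 after chronic dopamine, a log2(fold change) of 0.30.

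Genes of DNA replication and repair that passed were lower in Chronic 24 h. On a list made after the values were seen, 24 of 59 tested genes passed lower and 0 higher, with a median log2(fold change) of -0.64 and 56 of 59 negative. Between 12 and 17 passed with any 1 of the 6 libraries left out. POLA1 (ENSG00000101868, chromosome X, 24693909 to 24996986), the catalytic subunit of DNA polymerase alpha, was at 46.5, 46.8 and 46.0 against 19.0, 18.0 and 15.0 (-1.42, SE 0.22, adjusted p = 0.00278). CDC45, part of the replicative helicase (ENSG00000093009, chromosome 22, 19479457 to 19520612), was at 28.6 to 35.0 in the acute libraries against 10.9 to 11.8 in the chronic ones (-1.46, SE 0.25, adjusted p = 0.00457). XRCC2, a recombination factor, passed at a log2(fold change) of -1.66, ESCO2, a cohesin acetyltransferase, at -1.72 and BLM, a helicase, at -1.39. PCNA, the polymerase clamp, passed at -0.72 and BRCA1, a repair factor, at -1.14. BRCA1 lost the call without replicate 1 of Acute 24 h or replicate 1 or 2 of Chronic 24 h (adjusted p up to 0.0797).

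Of 18 tested markers of dividing cells, 1 passed higher, CCNB2, and 2 lower, PCNA and RRM2. CCNB2 and RRM2 lost the call with any 1 of the 6 libraries left out. The summed TPM of these markers was 2500 to 2840 in Acute 24 h and 2510 to 2820 in Chronic 24 h. In bulk RNA, fewer cells of a type and less RNA per cell cannot be told apart. Whether the share of cycling cells has a part in these values was not tested.

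Some amino acid supply genes were lower. SLC7A11 (ENSG00000151012, chromosome 4, 138164097 to 138242349), the cystine importer, was at a TPM of 5.80, 5.95 and 8.99 in Acute 24 h and 0.716, 0.818 and 0.693 in Chronic 24 h (log2(fold change) -3.18, SE 0.33, adjusted p = 0.000134), and was the 1 of 15 NRF2 list members to pass. IARS1, a cytosolic aminoacyl-tRNA synthetase, was at 79.7, 97.6 and 112 against 46.3, 44.8 and 40.8 (-1.11, SE 0.16, adjusted p = 0.00145). It was 1 of 5 of 20 such synthetases that passed lower, 0 higher, on a list made after the values were seen. Between 2 and 5 passed with 1 library left out, with 2 without replicate 3 of Chronic 24 h and 3 without any other except replicate 2 of Acute 24 h. PSAT1, of serine synthesis, passed at -0.84. Of 28 ATF4 and unfolded protein response genes, 4 passed higher and 2 lower, among them the chaperones HSPA5 at 0.98, with a TPM of 258, 302 and 287 against 565, 571 and 522, and CALR at 0.62. With 1 library left out, 3 passed higher without replicate 3 of Chronic 24 h and 2 without any of the other 5, where XBP1 and MANF lost their calls.

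Ribosomal protein genes, another list made after the values were seen, were higher in Chronic 24 h where they passed. Of 77 tested, 38 passed higher and 0 lower, all 77 were positive and the median was 0.61. The number that passed was 17, 19 and 14 without replicate 1, 2 or 3 of Acute 24 h and 18, 11 and 30 without replicate 1, 2 or 3 of Chronic 24 h. Their summed TPM was 43000 to 54700 in Acute 24 h, 64800 to 82500 in Chronic 24 h and 49000 to 70600 in PBS. RPL21, the gene with the lowest p, was at 457, 570 and 592 against 918, 958 and 803. These genes have many processed pseudogenes, so their reads are uncertain.

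**Figure D3:**
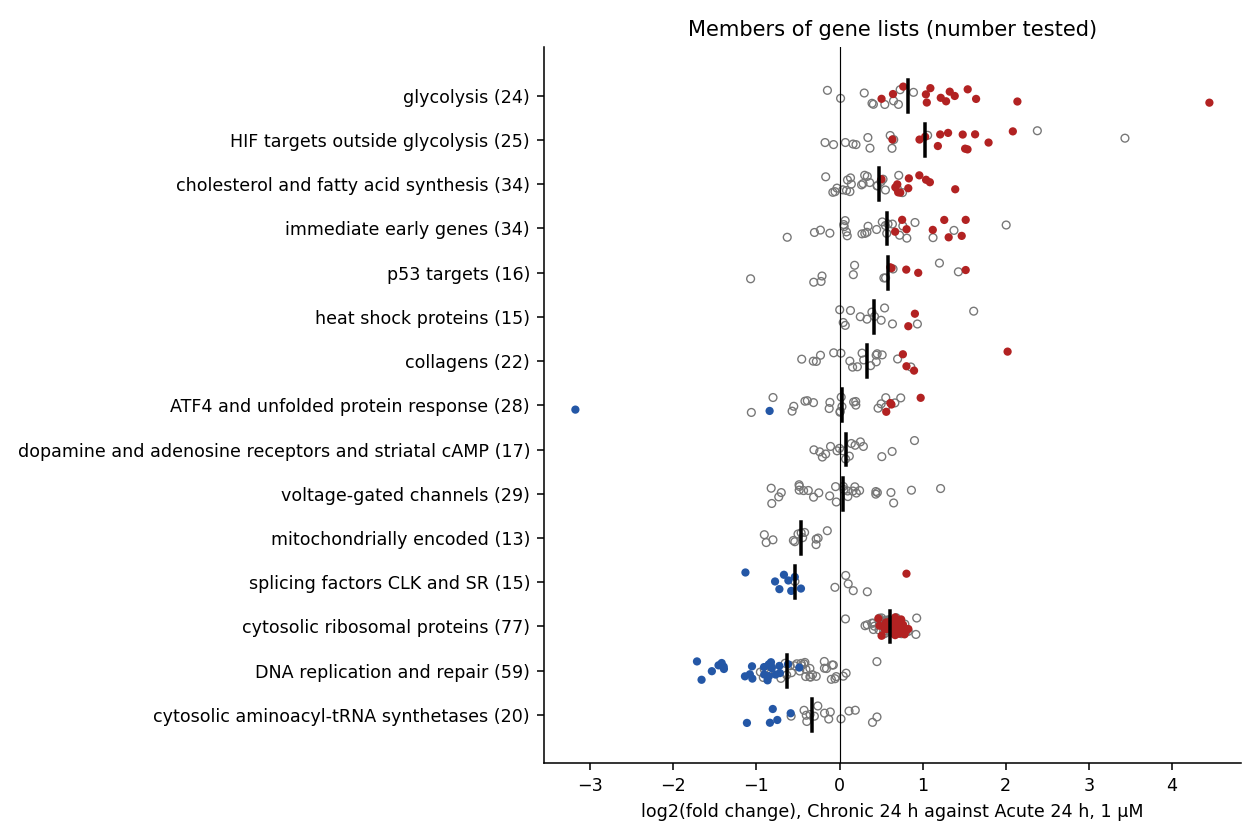
Log2(fold change) of Chronic 24 h against Acute 24 h (x axis) for the tested members of each of 15 gene lists (rows), filled where the adjusted p-value was under 0.05, with a bar at the list's median. Glycolysis and HIF targets lie to the right with medians of 0.83 and 1.03, and DNA replication and repair lies to the left with a median of -0.64. The lists of DNA replication and repair, ribosomal proteins and aminoacyl-tRNA synthetases were made after the values were seen.

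Single genes with the largest change came next. NPVF, the precursor of RFamide-related peptides (ENSG00000105954, chromosome 7, 25224570 to 25228486), had 0 exon reads in the acute libraries and 96 in the chronic ones, at a TPM of 4.89, 6.97 and 7.02, which makes it at least 20.1-fold higher with a floor of 3 reads over the group. AQP1, a water channel of the choroid plexus, was at 1.20, 1.11 and 2.36 against 10.9, 12.2 and 9.97 (adjusted p = 0.00162). CXCL14 (ENSG00000145824, chromosome 5, 135570679 to 135579279), a chemokine, was at 13.7, 12.8 and 12.5 against 84.4, 102 and 74.3 (2.75, SE 0.29, adjusted p = 0.000134), near PBS at 89.5, 76.8 and 79.9. PMCH, the precursor of melanin-concentrating hormone, was at 4.87, 3.80 and 3.58 against 30.4, 34.7 and 28.8, on 24 and 304 reads (2.93, SE 0.58, adjusted p = 0.012). It lost its call without replicate 2 or 3 of Acute 24 h or replicate 2 of Chronic 24 h, with an adjusted p of up to 0.0644.

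DKK2, a Wnt inhibitor, and NPR3, the natriuretic peptide clearance receptor, passed with 2.32 and 2.89. On total gene reads they had 1.08 (adjusted p = 0.491) and 1.96 (adjusted p = 0.128), and both lost the call. TUBA4A, SNHG18, TNFRSF12A, LSMEM1 and ARHGAP8 were also among the 12 with the largest rise, at 3.10, 4.00, 2.45, 2.54 and 2.39. All 5 lost their call with at least 1 library left out, with adjusted p values of up to 0.0619, 0.0589, 0.109, 0.153 and 0.14. TUBA4A lost it for all but replicate 1 of Acute 24 h, SNHG18 for replicate 2 of Acute 24 h only, and the other 3 for each of the 6.

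Among the lower genes beyond NCOA5, SLC7A11, ESCO2 and XRCC2, GPR1 was at 7.28, 6.86 and 5.98 against 0.898, 0.927 and 0.590 (-3.02, adjusted p = 0.0157). It lost its call with each library left out except replicate 3 of Acute 24 h, with an adjusted p of up to 0.0789. POM121B, which has close paralogs, rested on 51 reads against 1. Its acute to chronic ratio was 81.2 per total reads (95% interval 13.9 to 3271, counting error only). It lost its call with each of the 6 libraries left out (adjusted p up to 0.207), on total gene reads and with thinning. UNC13C (-2.07), HFM1 (-1.64), P2RX5-TAX1BP3 (-1.61), CNGB1 (-1.59) and KIAA1614 (-1.59) passed at low levels, all with a TPM under 6 in every one of the 6 libraries. With 1 library left out, their adjusted p values were up to 0.17, 0.06, 0.191, 0.128 and 0.117. UNC13C, P2RX5-TAX1BP3 and KIAA1614 lost the call for each library, CNGB1 for all but replicate 1 of Chronic 24 h, and HFM1 for replicate 1 of Acute 24 h and replicates 1 and 3 of Chronic 24 h. On total gene reads, which include introns, HFM1 had a log2(fold change) of 0.58 (adjusted p = 0.87), the opposite direction.

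**Figure D4:**
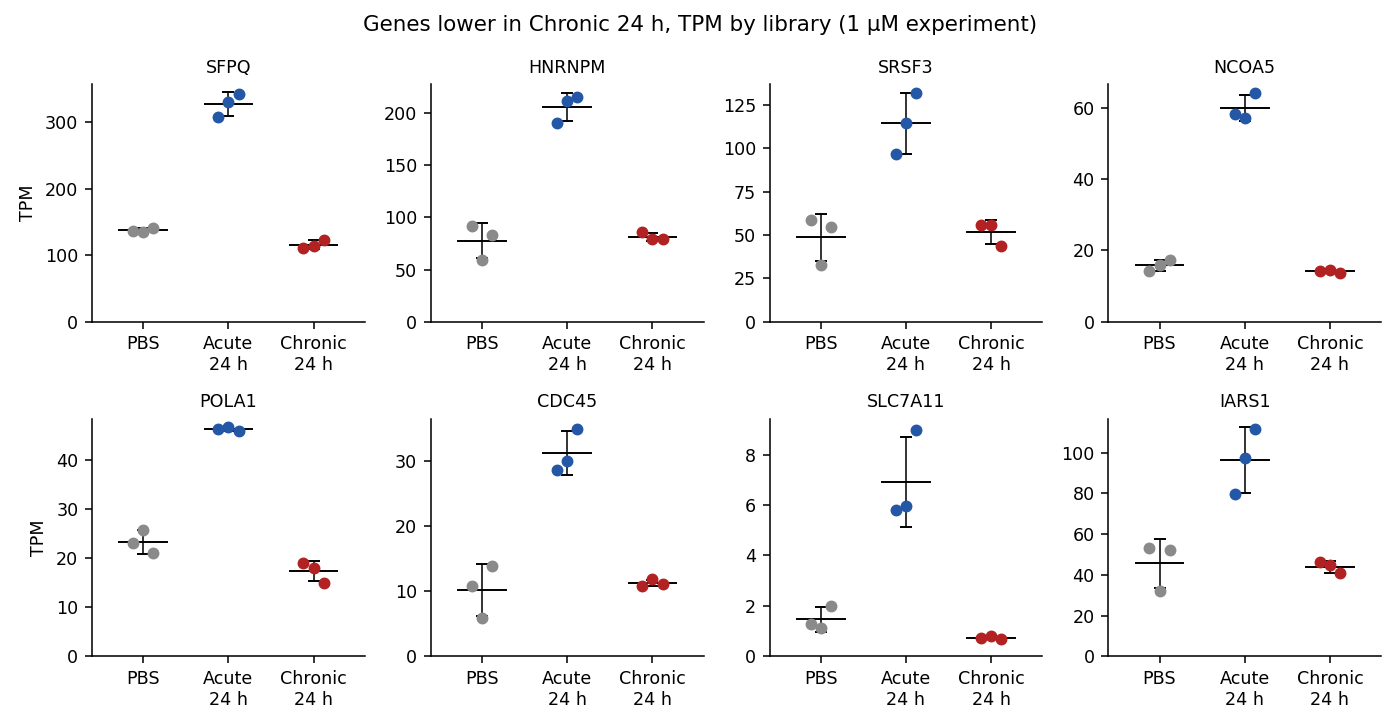
TPM (y axis) of SFPQ, HNRNPM, SRSF3, NCOA5, POLA1, CDC45, SLC7A11 and IARS1 in each library of PBS, Acute 24 h and Chronic 24 h at 1 µM (x axis), with a line at the mean and bars of 1 SD (n = 3). In all 8 genes the 3 chronic points lie below the 3 acute points, and for NCOA5 the acute points at 57.1 to 64.0 lie above the PBS points at 14.3 to 17.4.

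Signalling ligands and regulators changed in both directions. RSPO1 (ENSG00000169218, chromosome 1, 37611350 to 37634892), a Wnt potentiator, was at 61.0, 57.5 and 50.9 in Acute 24 h and 21.5, 24.0 and 22.1 in Chronic 24 h (-1.33, adjusted p = 0.00509), and RSPO2 passed at -0.96. DKK3 passed higher at 0.79, so with DKK2 2 of 28 Wnt genes passed each way. ID4 (ENSG00000172201, chromosome 6, 19837370 to 19842197), an inhibitor of differentiation factors, was at 444, 563 and 584 against 222, 217 and 208 (-1.28, SE 0.14, adjusted p = 0.000186). Of 26 TGF-beta and BMP genes, 2 passed higher and 2 lower, and 0 to 2 higher and 1 lower, ID4, with 1 library left out.

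Of 30 matrix glycoproteins and proteoglycans, 4 passed higher and 1 lower, with NID2, a basement membrane protein, at 1.38, and 1 to 4 passed higher and 0 lower with 1 library left out. Of 22 collagens, 4 passed higher, but 0 did with any 1 of the 6 libraries left out. p53 targets had 5 of 16 higher, with ZMAT3 at 0.95, and 1 or 2 with 1 library left out. Heat shock proteins had 2 of 15, BAG3 and HSPA1B, and 0 with any 1 library left out. Circadian genes had 3 higher, among them BHLHE40, a transcriptional repressor, at 1.48, and 1 lower of 18, with 1 or 2 higher and 0 lower with 1 library left out. SV2C, a synaptic vesicle protein, was the 1 of 23 release genes to pass, at -1.38.

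By edgeR, 0 genes passed on the lists of ERK feedback, GABA-A receptors, voltage-gated channels, Notch, SRF and actin, and dopamine synthesis. At an unadjusted p under 0.05 these held 2 of 15, 2 of 15, 4 of 29, 1 of 18, 5 of 16 and 1 of 9, and DESeq2 passed 1, 1, 3, 0, 0 and 0. Of 17 dopamine and adenosine receptor and striatal cAMP genes 0 passed by either tool, with 1 at an unadjusted p under 0.05.

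Cell type markers were read against the labelled medium spiny neurons. DRD1, the D1 receptor, was at a TPM of 2.50, 4.03 and 2.30 in Acute 24 h and 2.25, 2.64 and 2.18 in Chronic 24 h, and DRD2 at 3.79, 1.70 and 2.25 against 2.47, 3.13 and 2.44. PPP1R1B, which encodes DARPP-32, was at 4.44, 5.54 and 6.87 against 10.0, 10.8 and 10.2, without overlap but not past the test (adjusted p = 0.145). BCL11B, or CTIP2, was at 45.3, 43.0 and 51.3 against 38.6, 33.5 and 35.8. These markers were thus detected in all 6 libraries, with DRD1 and DRD2 under a TPM of 5. On the lists of D1 and D2 medium spiny neuron markers, PDYN and GPR6 did not pass the filter on low counts and were not tested. Of 7 tested D1 markers 1 passed, EPHA4, lower, and it lost the call with any 1 library left out. Of 6 tested D2 markers 0 passed. Of 10 listed markers of medial ganglionic eminence interneurons, only NKX2-1 was at 0 in all 6. The paper reports expression of this gene in hMSN-like cells by QRT-PCR. Of these interneuron markers 5 were tested and 0 passed. Their summed TPM was 23.5 to 31.9 in Acute 24 h and 25.8 to 27.8 in Chronic 24 h. Summed TPM of general medium spiny neuron markers was 233 to 267 in Acute 24 h and 208 to 214 in Chronic 24 h, where 2 of 16, MEIS2 and ZNF503, passed lower, both losing the call with any 1 library left out. The sums for excitatory cortical neurons, neural progenitors and dividing cells, given elsewhere in these results, were larger in both groups. Sums over lists of different genes do not give the share of cells of a type.

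Other cell types were measurable too. Markers of choroid plexus and ependyma summed to 1600 to 2100 in Acute 24 h, 3160 to 3470 in Chronic 24 h and 2130 to 2710 in PBS. Most of the sum was TTR in both regimens. Of 7, 2 passed higher, TTR, a thyroid hormone carrier, at 1715, 2025 and 1524 against 3243, 3332 and 3054, and CLIC6, which lost its call with any 1 of the 6 libraries left out. Fibroblast and mural cell markers summed to 56.5 to 64.3 against 92.9 to 101, with PBS spanning both at 53.7 to 108. Of 9, 2 passed higher, COL1A2 and COL1A1, both losing the call with any 1 of the 6 libraries left out. Of 10 neural progenitor markers, 1 passed higher, VIM, an intermediate filament gene, at 1119, 1332 and 1295 against 2536, 2454 and 2259, and 2 passed lower, NES at -0.50 and SOX1 at -0.48, with a list median of 0.069. Their summed TPM, most of it VIM in Chronic 24 h, was 2830 to 3380 against 3960 to 4440. With 1 library left out, 0 or 1 passed lower. Excitatory cortical neuron markers summed to 1620 to 1930 against 1940 to 2020. GAD1, which makes GABA, was at 1.84, 2.17 and 3.41 against 8.20, 6.66 and 9.73 (1.76, SE 0.27, adjusted p = 0.0027). It was the 1 of 8 GABAergic neuron markers to pass, 4 of which were positive and 4 negative, and their summed TPM overlapped, at 25.9 to 53.4 against 36.1 to 46.7. The part of these cell types in the DEGs was not tested.

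Setting both regimens beside PBS shows where the groups lay. These comparisons share the Acute 24 h or Chronic 24 h libraries with the one above, so their values stand side by side only. The paper names the control here as PBS and does not say that it held ascorbic acid. It names an ascorbic acid vehicle control only for another experiment. Against PBS, dopamine and its ascorbic acid therefore cannot be told apart. Acute 24 h against PBS gave 196 DEGs (1.18%), 59 higher (0.357%) and 137 lower (0.828%), and 547 genes passed the adjusted p-value (3.31%), 231 higher (1.4%) and 316 lower (1.91%). The count of DEGs was 104, 90 and 83 without replicate 1, 2 or 3 of Acute 24 h, 129, 136 and 152 without replicate 1, 2 or 3 of PBS, and 332 without the 3 libraries with the highest mitochondrial share. Chronic 24 h against PBS gave 0 DEGs by edgeR, with 608 genes (3.68%) at an unadjusted p under 0.05, while DESeq2 gave 1. The 145 DEGs that were higher in Chronic 24 h had a median log2(fold change) of -1.25 in Acute 24 h against PBS, where 99 passed, and of 0.16 in Chronic 24 h against PBS, where 0 passed. The 95 lower DEGs had medians of 0.93, with 43 passing, and -0.32, with 0 passing. Over all tested genes these medians were 0.012 and 0.016.

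For lists, glycolysis had 13 genes passing lower and 0 higher in Acute 24 h against PBS, with a median of -0.89, and 0.16 as its median in Chronic 24 h against PBS. HIF targets had 14 and 0, with -0.98, and -0.14. Immediate early genes had 6 lower and 0 higher in Acute 24 h against PBS, with a median of -0.55, and 0.07 as their median in Chronic 24 h against PBS. DNA replication and repair, a list made after the values were seen, had 24 higher and 0 lower in Acute 24 h against PBS. Its members were chosen with the Acute 24 h values known, so this count is no separate result. Replicate 2 of PBS had 12.4% of its exon reads on mitochondrial genes and was the lowest of the 3 for several glycolysis genes, with ALDOA at 349 against 656 and 692. Without it and the 2 other libraries of high mitochondrial share, Chronic 24 h against PBS still gave 0 DEGs.

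The same regimens were compared 1 h after the last dose, in libraries that belong to neither group of the 24 h comparison. They were in the same fit of 15 libraries, so they had a part in the estimate of the spread that called the 24 h DEGs. At 1 h, 199 genes passed the adjusted p-value (1.2%), 82 of them DEGs (0.496%). Of the 145 higher DEGs of 24 h, 137 (94.5%) had the same sign at 1 h with a median log2(fold change) of 0.75, against 5510 of 8226 tested genes that were positive at 24 h (67%). Of the 95 lower DEGs, 86 (90.5%) did, with a median of -0.60, against 5642 of 8309 (67.9%). Of these, 32 and 16 passed at 1 h in the same direction. Glycolysis had 9 of 24 passing higher at 1 h, HIF targets 3 of 25 and cholesterol and fatty acid synthesis 1 of 34. Immediate early genes had 1 higher and 3 lower of 34, with a median of -0.36. DNA replication and repair had 1 of 59 lower, with a median of -0.069, and edgeR gave 0 of 77 ribosomal protein genes and 0 of 15 CLK and SR genes, with 5 and 3 at an unadjusted p under 0.05.

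The 1 h counts depended on the libraries in the fit. Same-numbered libraries of Acute 1 h and Chronic 1 h deviated together (correlations 0.12, 0.446 and 0.368), and replicate 2 of each had a high mitochondrial share. With the replicate number as a block, 187 genes passed and 84 were DEGs, 76 of them among the 82. In a fit of these 6 libraries alone, 0 passed without the block, with 1109 at an unadjusted p under 0.05, and 654 passed with it, 146 of them DEGs. The DEGs numbered 36 and 34 without replicate 1 or 3 of Chronic 1 h and 161 without the 3 libraries of high mitochondrial share, and the glycolysis genes that passed higher numbered 5, 3 and 12. The difference between 24 h and 1 h itself passed for 3 genes (0.0181%), FOS, EGR1 and NCOA5, with 1020 at an unadjusted p under 0.05 (6.17%). It passed for 22 without replicate 2 of Acute 1 h and for 131 without the 3 libraries of high mitochondrial share.

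At 1 mM, 24 h after the last dose, 709 of 18390 tested genes passed between regimens (3.86%), 285 higher after chronic dopamine (1.55%) and 424 lower (2.31%). Of the 145 DEGs, 97 (66.9%) had the same sign there with a median of 0.28, against 4529 of 8226 (55.1%), and of the 95, 75 (78.9%) with a median of -0.26, against 5086 of 8309 (61.2%). Of the higher DEGs, 18 passed at 1 mM in the same direction and 8 in the opposite one, and of the lower DEGs 11 and 0. Glycolysis had 3 genes passing higher at 1 mM and HIF targets 0. Immediate early genes went mostly the other way there, with 1 passing higher, 7 lower and a median of -0.71. ATF4 and unfolded protein response genes had 0 higher and 7 lower. The difference between doses passed for 380 genes (2.07%), with the 1 µM value larger in 247 (1.34%) and smaller in 133 (0.723%), and for 57 and 21 of the higher and lower DEGs. The doses were run as separate experiments with their own PBS libraries, so dose and experiment cannot be told apart. The count of 380 ranged from 151 to 627 with 1 library left out and was 1166 on total gene reads.

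**Figure D5:**
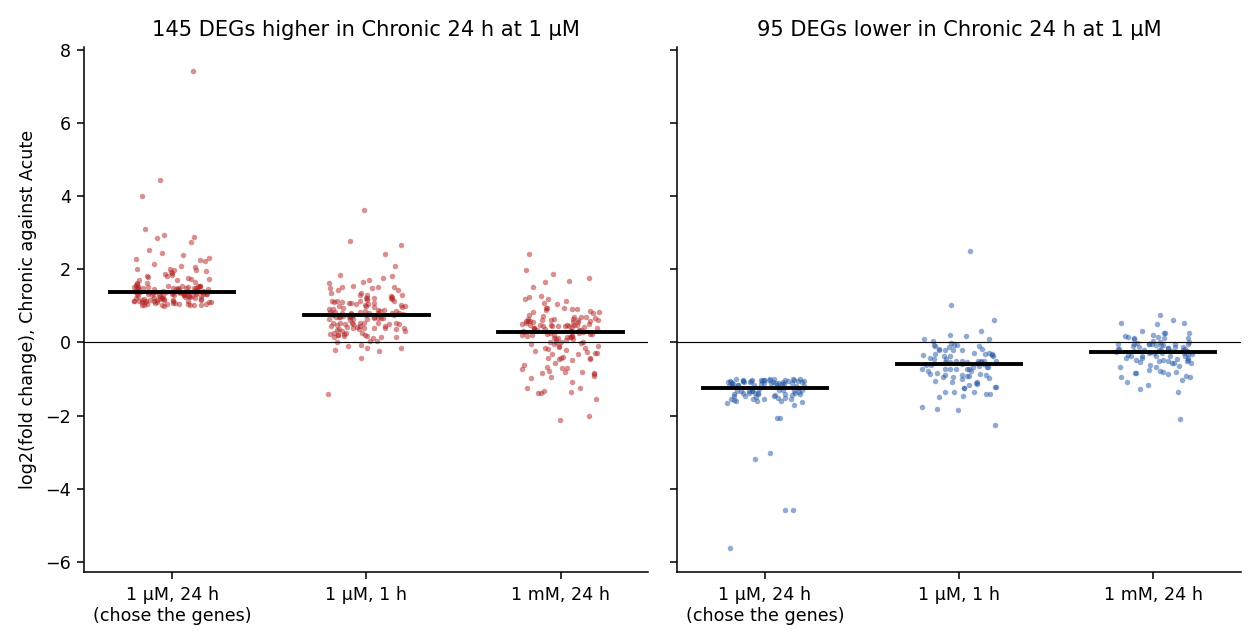
Log2(fold change) of the 145 higher and 95 lower DEGs of Chronic 24 h against Acute 24 h at 1 µM (left, the comparison that chose them), in Chronic 1 h against Acute 1 h at 1 µM and in Chronic 24 h against Acute 24 h at 1 mM (x axis), with a bar at each median. The medians of the higher DEGs were 1.38, 0.75 and 0.28 and those of the lower DEGs -1.24, -0.60 and -0.26.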

How the data were processed

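RNA-seq reads were trimmed and mapped by the authors in CLC Genomics Workbench to GRCh38 (hg38 in the submitters' processing notes) with an Ensembl annotation. The deposited tables hold, per library and for 60676 genes, counts of reads on exons and on exons plus introns (total gene reads), and TPM computed by the authors from exon reads. The strand setting of the counting is not given in the sources used here. Exon counts were tested here in R 4.3.3 with edgeR 4.0.16, using filterByExpr (minimum count 10, minimum total 15), TMM, glmQLFit and glmQLFTest with Benjamini-Hochberg adjustment. The 1 µM fit held 15 libraries of 5 groups, which share an estimate of the spread, and the joint fit of both doses held 30. Standard errors were taken as the size of the log2(fold change) over the root of its F statistic. With 3 libraries against 3, an exact permutation test of a single gene cannot go below p = 0.1, so none was run. Groups were taken from titles, and 0 pairs of libraries had identical counts. For a gene of 2000 exon bases, the limit of detection was taken as 3 reads, counting error only.

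Alternatives were DESeq2 1.42.0 (size factors and Wald test), other filters and fold thresholds, total gene reads, thinning, only the compared groups, a replicate block and each library left out. The test was checked on simulated data. The members, gene lists and rules were chosen with earlier results of these data known. Named genes are up to 12 DEGs per direction with the largest fold change, up to 6 passing members of each list, receptor and immediate early genes, and the leading genes of the difference contrasts. Genes named from the lists on collagen-modifying enzymes, RNA-binding proteins, DNA replication and repair, aminoacyl-tRNA synthetases and ribosomal proteins, and LDHA, TPI1, HK2, PKM, GAPDH and CLK1, were chosen after their values were seen. Results for some genes are not reported here. Files of 23 other libraries were not used. Python 3.11.15 with pandas 2.3.3 and numpy 2.4.6 was used for tables.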

Additional observations from a re-analysis of the deposited data

Results flagged for a closer look

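The change between regimens differed between 24 h and 1 h for 3 genes by an interaction term in edgeR. For FOS the log2(fold change) at 24 h exceeded that at 1 h by 2.92 (SE 0.34, adjusted p = 0.00315), and for EGR1 by 2.21 (SE 0.30, adjusted p = 0.0143), with EGR1 at a TPM of 143 to 257 after acute and 50.0 to 55.5 after chronic dopamine at 1 h. For NCOA5 the difference was -2.38 (SE 0.24, adjusted p = 0.00126). Without replicate 2 of Acute 1 h the count was 22.

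Between the doses, the change differed for 380 genes. The 1 µM value was larger by 2.42 for TIMP3, a metalloproteinase inhibitor (SE 0.28, adjusted p = 6.53e-05), which had a log2(fold change) of 1.49 at 1 µM and -0.92 at 1 mM. It was larger by 2.96 for P3H2 (SE 0.35, 1.70 against -1.26) and by 1.25 for CALR (SE 0.16, 0.62 against -0.62). The difference was -1.65 for BHLHE22 (SE 0.21, -0.38 against 1.28), a neuronal transcription factor, -1.29 for CACNA1E (SE 0.18, -0.49 against 0.81), a calcium channel subunit, and -1.08 for DCC (SE 0.16, -0.78 against 0.31), the netrin receptor. The count was 593 and 627 without replicate 2 or 3 of 1 mM Acute 24 h, and 151 and 203 without replicate 1 or 3 of 1 mM Chronic 24 h. It was 174, 208 and 195 without replicate 1, 2 or 3 of 1 µM Acute 24 h, and 164 and 168 without replicate 1 or 2 of 1 µM Chronic 24 h. Dose and experiment cannot be told apart.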

How the results depend on the processing

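The 240 DEGs of Chronic 24 h against Acute 24 h numbered 450 at a fold threshold of 0.75, 741 without thresholds, 390 by DESeq2's Wald test, 545 with only the 2 groups, 598 without the 3 libraries rich in mitochondrial reads (chosen after seeing the data) and 111 to 153 with 1 library left out, and 237 of the 240 were among the 390. For Acute 24 h against PBS (196) the values were 334, 547, 324, 127, 332 and 83 to 152. Chronic 24 h against PBS stayed at 0 except for 1 by DESeq2's test. The difference between 24 h and 1 h (3 genes) ranged from 2 to 22 with 1 library left out and was 131 without the 3 libraries, and that between doses (380) ranged from 151 to 627, with 1166 on total gene reads and 121 with only the 4 groups. The causes were not tested.

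The 82 DEGs of Chronic 1 h against Acute 1 h, whose alternatives were chosen after seeing the data, became 0 with only the 2 groups, 146 with those and a replicate block, 161 without the 3 libraries and 34 to 105 with 1 library left out.

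Same-numbered libraries of Acute 24 h and Chronic 24 h did not deviate together (correlations -0.129, 0.0688 and -0.148). So few libraries cannot show whether the numbers pair them, and the labels do not say. Those of Acute 1 h and Chronic 1 h did, with every correlation above 0.1. With a replicate block the counts of the 5 comparisons above the 1 h one were 254, 0, 188, 3 and 337, and that of the 1 h one was 84.

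Of 128 named genes that passed, 67 kept direction and call under every alternative that tested them, 61 lost the call under at least 1, and HFM1 reversed on total gene reads (log2(fold change) 0.578).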

Other observations

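Further DEGs, chosen after their values were seen, belong to none of the lists described. IGFBP2, a binding protein of insulin-like growth factors, was at a TPM of 131, 206 and 220 in Acute 24 h and 667, 716 and 554 in Chronic 24 h (log2(fold change) 1.83, adjusted p = 0.0184). CALB2, the calcium-binding protein calretinin, was at 60.7, 84.1 and 97.7 against 194, 184 and 158 (1.16, adjusted p = 0.000288). PCP4, a calmodulin regulator, was at 63.3, 67.3 and 54.8 against 165, 162 and 155 (1.38, adjusted p = 0.00315). The groups of these 3 genes did not overlap. CALB2 and PCP4 kept the call with each library left out, and IGFBP2 lost it with each except replicate 3 of Chronic 24 h (adjusted p up to 0.0991).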
